A study of Mus musculus with 6 samples.

Results

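Tetraspanins are small membrane proteins that cross the membrane repeatedly and gather integrins, receptors and immunoglobulin-like partners into membrane patches. In B cells they hold the antigen coreceptor at the surface, and in macrophages they act in adhesion, cell fusion, endosomes and the release of vesicles. The 9 genes described here are Cd9, Cd37, Cd53, Cd63, Cd81, Cd82, Cd151, Tspan32 and Tspan33, taken by symbol from 21399 genes. All 9 were present in each of the 6 tables, and 8 of them reached the mean of 1 FPKM that was needed for the test. FPKM are fragments per kilobase of transcript and of sequencing depth, so levels can be compared between genes. Tspan33 lay below that mean and is given by its values alone.

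The 6 mouse libraries fall into 3 labelled WT and 3 labelled KO. In both groups, primary microglia of mice with the CD45.2 form of the leukocyte protein CD45 were deprived of oxygen and glucose, a culture model of ischaemia, then reoxygenated together with peritoneal macrophages of CD45.1 mice and sorted. The microglia were of WT mice in one group and of KO mice in the other, and the added macrophages came from CD45.1 mice in both. Neither the deleted gene nor what drives its deletion is named in the labels, and the series title points to PPARα. Ages and durations are likewise not stated, and no label ties a library to an animal or culture of its own, so a p-value here measures no more than the library-to-library spread, which can be technical. The design text gives the sorted population, called microglia, the CD45.1 mark of the added macrophages.

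Recovered reads summed to between 33506203 and 37137642 per library. Ppara had 11, 1 and 2 reads in the WT libraries and 13, 23 and 10 in the KO libraries (exact two-sided permutation p = 0.2, where 3 against 3 allows no p below 0.1), and a gene-level value near 0 does not check the labels. The 10 B cell markers summed to 5230, 5880 and 5687 FPKM in the WT libraries and to 4571, 4632 and 5008 FPKM in the KO libraries. Every KO sum lay below every WT sum. The 10 core macrophage markers summed to 1890, 3892 and 1402 FPKM in the WT libraries and to 11357, 6135 and 4941 FPKM in the KO libraries (replicates 1 to 3 in that order, here and throughout), so these groups did not overlap. Of 10 microglia markers in the tables, Sall1, Gpr34, Siglech and Slc2a5 stayed under 1 FPKM in every library. The 10 summed to between 94.4 and 117 FPKM in WT and between 101 and 117 FPKM in KO. Of the 5 tested, 0 were called, with 4 positive differences and 1 negative. All KO libraries lay above WT for 2 of the 5, beside 9.75% of all genes, and the other tested markers overlapped. The 2, named after their values were seen, were Tmem119 (0.567 ± 0.427 and 2.27 ± 0.148 FPKM) and Olfml3 (0.948 ± 0.102 and 1.41 ± 0.251 FPKM). Both were low, with 16 to 196 reads per library for Tmem119 and 53 to 101 for Olfml3. WT replicate 2 stood apart from the other WT libraries toward the KO libraries in its macrophage markers. In bulk RNA, fewer cells of a type and less RNA per cell cannot be told apart.

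Promoter sequences are shown for the members with the largest differences between the groups in each direction, Cd9 and Cd63 on the higher side and Cd37 and Tspan32 on the lower side, whose levels across the libraries are compared further on. Each line gives the 250 bases before the RefSeq start in GRCm38.p6, 5′ to 3′ on the strand of the gene, with capitals on the motifs found.
Cd9, minus strand of chr6:125494761-125495010: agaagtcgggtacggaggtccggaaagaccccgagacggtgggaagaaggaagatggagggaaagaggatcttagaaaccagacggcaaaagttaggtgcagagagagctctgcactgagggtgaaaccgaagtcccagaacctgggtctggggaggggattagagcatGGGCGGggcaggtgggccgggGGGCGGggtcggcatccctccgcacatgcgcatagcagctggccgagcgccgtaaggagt
Cd63, plus strand of chr10:128909095-128909344: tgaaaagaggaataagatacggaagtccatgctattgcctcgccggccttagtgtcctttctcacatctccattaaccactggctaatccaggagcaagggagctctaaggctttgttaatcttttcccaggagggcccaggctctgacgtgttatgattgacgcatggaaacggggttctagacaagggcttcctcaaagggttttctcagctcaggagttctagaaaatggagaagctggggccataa
Cd37, minus strand of chr7:45238840-45239089: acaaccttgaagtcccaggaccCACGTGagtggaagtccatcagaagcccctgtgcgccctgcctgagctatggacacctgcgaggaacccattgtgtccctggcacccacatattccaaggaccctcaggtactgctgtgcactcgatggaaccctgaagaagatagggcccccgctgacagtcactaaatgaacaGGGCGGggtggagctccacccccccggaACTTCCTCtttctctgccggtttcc
Tspan32, plus strand of chr7:143004796-143005045: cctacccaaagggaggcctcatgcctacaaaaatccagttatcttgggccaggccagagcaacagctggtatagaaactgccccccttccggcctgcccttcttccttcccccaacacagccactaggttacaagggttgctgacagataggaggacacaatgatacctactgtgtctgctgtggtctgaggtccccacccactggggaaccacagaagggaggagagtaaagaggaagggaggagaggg

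A search on both strands covered the PU.1 motif GAGGAAGT, the GC box GGGCGG, the TATA box TATAAA, the E-box CACGTG and the AP-1 motif TGANTCA, and no motif overlapped another in these 4 windows. The Cd9 window held 2 GC boxes, which begin 81 and 60 bases before the start. GC boxes occurred in 32.7% of all 32851 windows of this length. The Cd37 window held a PU.1 motif that begins 25 bases before the start, a GC box at 53 bases and an E-box at 228 bases, and these PU.1 and E-box motifs occurred in 2.44% and 6.02% of all windows. None of the 5 motifs was found in the Cd63 or Tspan32 windows, which says only that these letters are not there. The RefSeq starts used for Cd9, Cd63 and Cd37 differ from the GENCODE starts. The Cd9 window runs across its GENCODE start at 125494791, so the distances given for Cd9 hold for the RefSeq start only. The windows of Cd63 and Cd37 lie inside the GENCODE spans of the genes, 128900989 to 128912822 for Cd63 and 45233632 to 45239115 for Cd37. The bases before the GENCODE starts of Cd63 and Cd37 were not searched. Of 13 windows for the 9 members, 7 held a GC box and 0 a TATA box, which 12.4% of all windows held. The PU.1 motif was in 2 of the 13, that of Cd37 and 1 of Cd82, where it begins 225 bases before the start. The Tspan32 window had 1 CG pair and the Cd9 window 16, beside a median of 6 over all windows.

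In mm10, 4 of the 9 genes lie on chromosome 7. Tspan32 (143005046 to 143019644, plus strand) and Cd81 (143052739 to 143067934, plus strand) are neighbours there, with 33094 bases and 0 protein-coding genes between them, and Cd151 (141467392 to 141471473, plus strand) lies 1533572 bases before Tspan32. Cd37 (45233632 to 45239115, minus strand) lies on the same chromosome and overlaps Tead2 on the opposite strand. Cd9 lies on chromosome 6 (125460266 to 125494791, minus strand), Cd63 on chromosome 10 (128900989 to 128912822, plus strand), Cd53 on chromosome 3 (106759921 to 106790149, minus strand), Cd82 on chromosome 2 (93419111 to 93463140, minus strand) and Tspan33 on chromosome 6 (29694222 to 29718559, plus strand). The counting is not stated to use strand, so reads of opposite-strand genes cannot be told apart. Tead2 reached at most 0.271 FPKM, and the noncoding Gm28809 inside the Cd9 locus at most 0.379 FPKM.

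Tetraspanin transcripts were abundant in all 6 libraries and spread over a wide range of levels. Cd37, a tetraspanin restricted to leukocytes and most abundant on mature B cells, was the highest member, at 575 FPKM over all libraries and rank 109 among all genes. Cd9 followed with 181 FPKM and Cd53, found on most leukocytes, with 177 FPKM. Cd63, Cd82, Tspan32 and Cd81 had means of 63.3, 56.6, 52.7 and 50.1 FPKM, and Cd151 had 12.5 FPKM. Tspan33 stood at 0.313 FPKM.

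**Figure D1:**
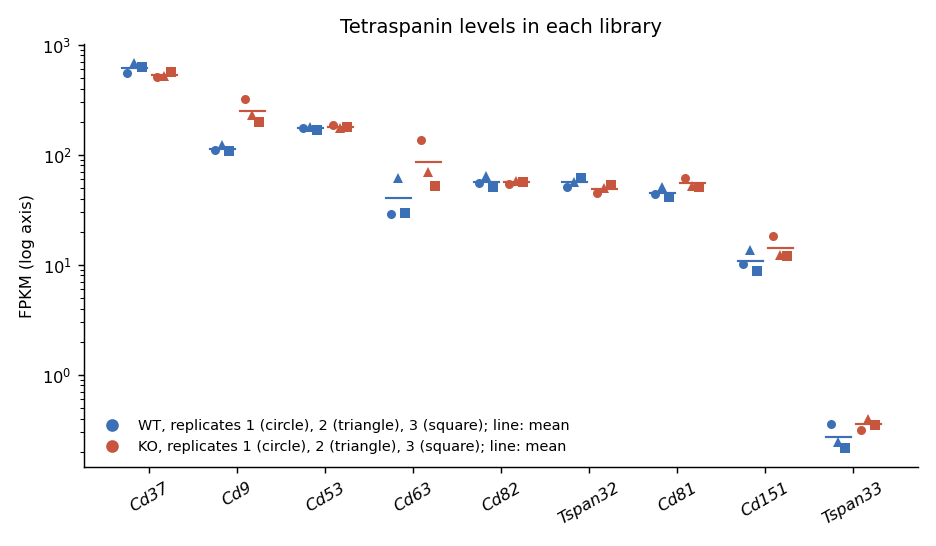
Level of each of the 9 tetraspanins in FPKM on a log axis, with 1 point per library (blue WT, red KO; circle, triangle and square for replicates 1 to 3) and a line at each group mean. The points of Cd9 are separate between the groups, from 107 to 122 FPKM in WT and from 197 to 319 FPKM in KO, while those of Cd53 and Cd82 lie together.

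The order of the levels was partly shared by the groups. In WT, Cd37, Cd53 and Cd9 came first in that order, each with a range apart from the next, and Cd82, Tspan32, Cd81 and Cd63 overlapped their neighbours. In KO, Cd9 stood second, with a lowest library of 197 FPKM above the highest Cd53 library of 187 FPKM, and Cd63, Cd82, Cd81 and Tspan32 overlapped their neighbours. Cd151 and Tspan33 were the lowest in both groups, each apart from the gene above it.

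The comparison of KO with WT asks whether the sequenced cells differ by microglial genotype. None of the 8 tested members passed the limma test at an adjusted p under 0.05. Over all 10732 genes tested, 0.028% were called higher (3 genes) and 0% lower. At an unadjusted limma p under 0.05, Cd9, Cd63 and Cd81 were higher (3 of 8 members) and 0 members were lower, beside 8.86% of all genes higher and 8.21% lower. All 3 KO libraries lay above all 3 WT libraries for Cd9 and Cd81 (2 of 8 members), beside 9.75% of all genes, and below them for 0 members, beside 15.2% of all genes. Overlap was judged here and throughout on unscaled FPKM. The FPKM of all genes summed to between 391346 (WT replicate 1) and 439451 (WT replicate 2). Overlap was not judged on rescaled values, and for small differences, as in Cd37, Tspan32 and Cd81, it can depend on these totals. The median log2 fold change was 0.16 over the 8 tested members and -0.06 over all genes tested.

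Cd9, which binds immunoglobulin-like partners and integrins and acts in adhesion and fusion, had the largest fold change of the members as reported, just ahead of Cd63. That order turned when WT replicate 2, KO replicate 2 or KO replicate 3 was left out. Without WT replicate 2 the differences were 1.15 for Cd9 and 1.41 for Cd63. Its levels were 111.5, 122 and 107 FPKM in WT and 319, 231 and 197 FPKM in KO. Every KO library stood above every WT library, and the WT libraries lay close together while the KO libraries were spread. The WT mean was 114 ± 7.88 FPKM and the KO mean 249 ± 62.8 FPKM (SD, n = 3), a ratio of 2.19. On log2(FPKM + 1) the difference was 1.10 (SE 0.17, 95% interval 0.70 to 1.50), with an adjusted p = 0.079 by limma that missed the threshold. It passed without WT replicate 2, with an adjusted p = 0.022 by limma, and with array weights, which weigh the libraries by their spread (adjusted p = 0.010 by limma, difference 1.02). Over all genes, 500 were called higher without WT replicate 2 and 544 with array weights, beside the 3 called as reported.

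Cd63, a tetraspanin of late endosomes, lysosomes and released vesicles, had a ratio of similar size with much wider spread. Its levels were 28.9, 62.0 and 29.6 FPKM in WT and 137, 69.9 and 52.3 FPKM in KO. WT replicate 2 stood above KO replicate 3, so the groups overlapped. The WT mean was 40.1 ± 18.9 FPKM and the KO mean 86.5 ± 44.9 FPKM, and the difference on log2(FPKM + 1) was 1.06 (SE 0.40, adjusted p = 0.25 by limma). Without KO replicate 1 the difference was 0.67. The library with the highest Cd63 in each group was also the one with the highest core macrophage markers. The 8 mast cell markers summed to 13.2, 565 and 257 FPKM in WT and to 476, 477 and 113 FPKM in KO, and WT replicate 2 was the highest WT library for these markers too. The part of either marker list in the Cd63 values was not tested by these sums.

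Cd81 is part of the B cell coreceptor that holds CD21. Its levels were 44.0, 50.7 and 41.3 FPKM in WT and 61.5, 51.5 and 51.3 FPKM in KO. On unscaled FPKM the groups did not overlap, but the highest WT and the lowest KO library differed by less than counting error. Their exact 95% Poisson intervals were 48.8 to 52.6 FPKM (2846 reads) and 49.4 to 53.3 FPKM (2769 reads). The difference on log2(FPKM + 1) was 0.27 (SE 0.11, 95% interval 0.01 to 0.53, adjusted p = 0.28 by limma). Cr2, which encodes CD21, was lower in level than Cd81, at 12.6 ± 1.87 and 11.4 ± 1.50 FPKM in WT and KO.

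Cd151 is the partner of laminin-binding integrins. It stood at 10.2, 13.7 and 8.84 FPKM in WT and at 18.1, 12.2 and 12.1 FPKM in KO. KO replicate 1 was the highest and WT replicate 2 lay above the other KO libraries, so the groups overlapped (difference 0.34, 95% interval -0.12 to 0.80, adjusted p = 0.43 by limma). Its difference was 0.16 without KO replicate 1 and 0.21 without WT replicate 3.

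**Figure D2:**
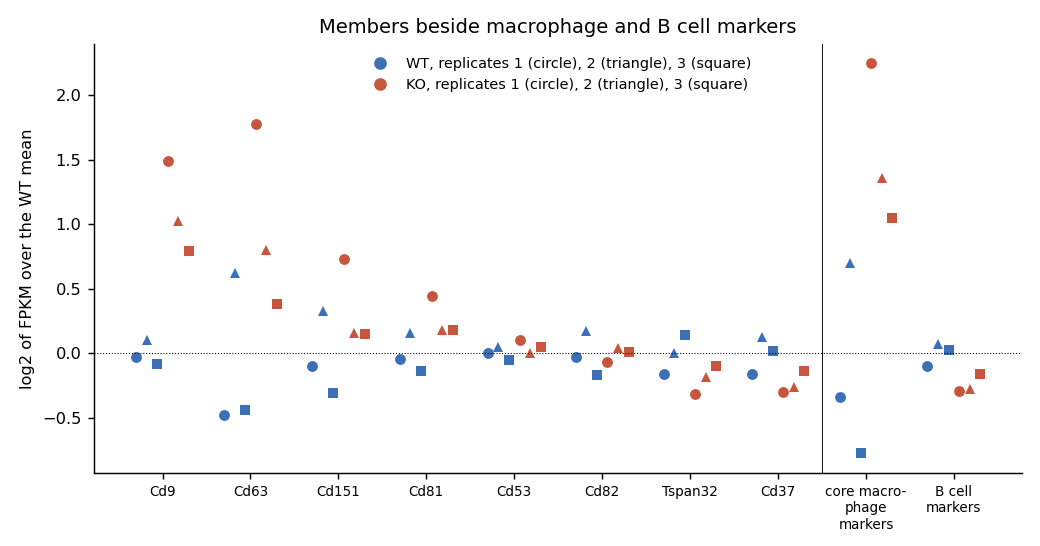
Each library's FPKM over the WT mean, in log2, for the 8 tested members and for the summed core macrophage and B cell markers (blue WT, red KO; circle, triangle and square for replicates 1 to 3). WT replicate 2 is the highest WT library for Cd63, Cd151 and the core macrophage sum, and for Cd9, at 122 FPKM beside a lowest KO library of 197 FPKM.

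Cd37 and Tspan32 were the members with negative fold changes, and neither passed the test. Cd37 had 555, 679 and 627 FPKM in WT and 506, 518 and 566 FPKM in KO. KO replicate 3 exceeded WT replicate 1 on unscaled FPKM, so the groups overlapped on that scale. The means were 621 ± 62.0 and 530 ± 31.7 FPKM (SD, n = 3), and the difference on log2(FPKM + 1) was -0.23 (SE 0.11, 95% interval -0.47 to 0.02, adjusted p = 0.34 by limma).

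Tspan32, a tetraspanin of blood cells, had 50.5, 56.4 and 62.0 FPKM in WT and 45.2, 49.7 and 52.6 FPKM in KO. Here too 1 KO library exceeded the lowest WT library on unscaled FPKM. The difference was -0.19 (SE 0.10, 95% interval -0.43 to 0.05, adjusted p = 0.40 by limma), and it was -0.12 without WT replicate 3. The 10 B cell markers had a median log2 fold change of -0.23, with 0 called and 6 of 10 whose KO libraries all lay below the WT libraries, beside 15.2% of all genes. The part of these markers in the Cd37 and Tspan32 values was not tested.

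Cd53 and Cd82 had the smallest differences of the members. Cd53 had 174, 180 and 168 FPKM in WT and 187, 174 and 180 FPKM in KO. The groups overlapped, and the difference was 0.05 on log2(FPKM + 1), with a 95% interval of -0.13 to 0.23 (adjusted p = 0.76 by limma). Cd82, known for restraining cell movement, had 55.6, 63.9 and 50.4 FPKM in WT and 54.2, 58.2 and 57.1 FPKM in KO. All KO values lay within the WT range, and the 95% interval of the difference was -0.24 to 0.24 (adjusted p = 1.00 by limma). The sign of the Cd53 and Cd82 differences changed with the scaling.

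Tspan33, of the TspanC8 subgroup that guides the protease ADAM10, had 26, 18 and 15 reads in WT and 24, 30 and 25 reads in KO. These reads gave 0.358, 0.243 and 0.215 FPKM in WT and 0.313, 0.400 and 0.351 FPKM in KO. The groups overlapped (exact two-sided permutation p = 0.3, where 3 against 3 allows no p below 0.1). A single library's exact 95% Poisson interval was as wide as 0.121 to 0.355 FPKM, in WT replicate 3.

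**Figure D3:**
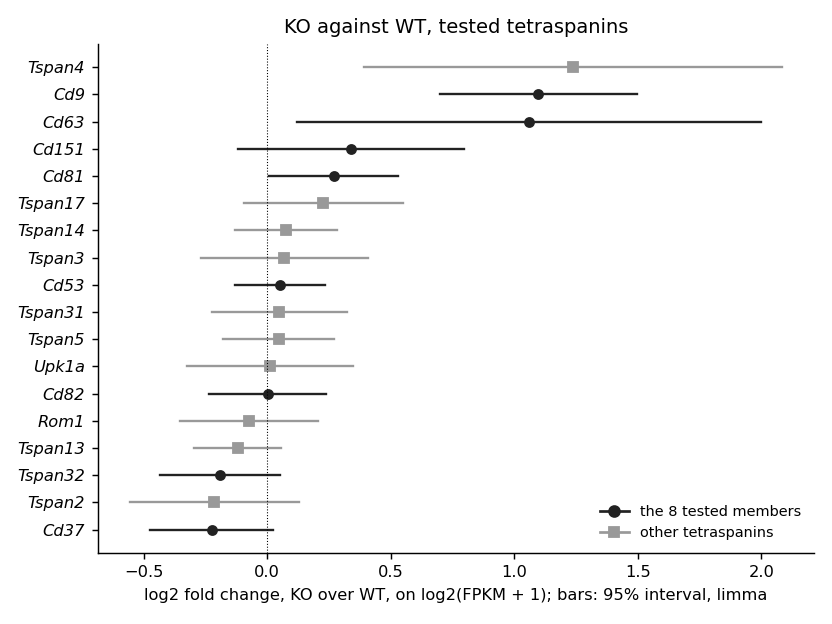
Log2 fold change of KO over WT on log2(FPKM + 1) with its 95% limma interval, for the 8 tested members (black circles) and 10 other tetraspanins (grey squares), sorted by size. Tspan4, Cd9 and Cd63 lie above 1, and Cd37 is the lowest at -0.23.

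The make-up of the tetraspanin transcripts differed between the libraries mainly in Cd9 and Cd37. The summed FPKM of the 9 members averaged 1118 ± 101 over the WT and 1220 ± 93.1 over the KO libraries, with overlapping libraries. Cd37 made up 53.9%, 55.3% and 57.3% of that sum in WT and 38.1%, 44.4% and 48.4% in KO. The share of Cd9 was 10.8%, 9.97% and 9.79% in WT and 24.0%, 19.8% and 16.9% in KO. Both shares were separate between the groups, and shares of 1 sum depend on each other, so these are 1 description and not 2 results. The Cd9 level divided by the Cd37 level was 0.184 ± 0.015 in WT and 0.475 ± 0.143 in KO. Cd63 divided by Cd9 was 0.259, 0.506 and 0.276 in WT and 0.431, 0.302 and 0.265 in KO, highest in WT replicate 2, and overlapped.

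**Figure D4:**
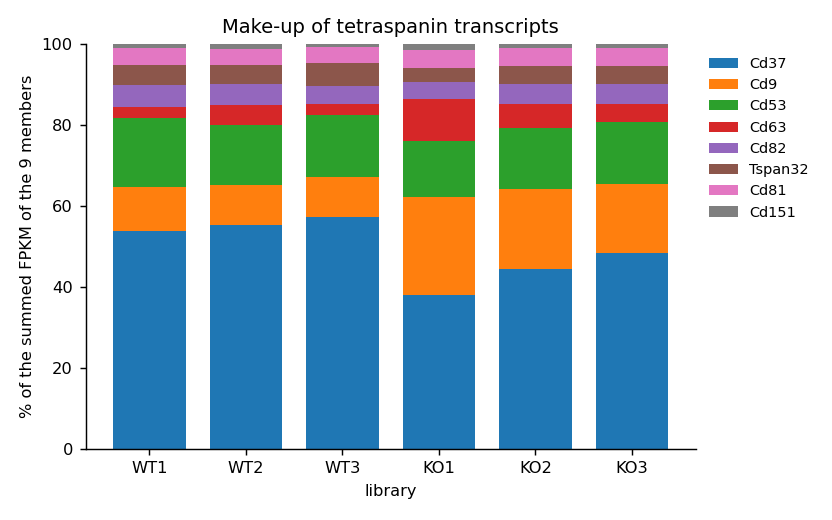
Share of each member in the summed FPKM of the 9 members, in percent, for each library as a stacked bar; Tspan33 is too low to be seen and is not drawn. The Cd37 share runs from 53.9% to 57.3% in WT and from 38.1% to 48.4% in KO, and the Cd9 share from 9.79% to 10.8% and from 16.9% to 24.0%.

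The members were set beside the macrophage signal by adding the mean log2(FPKM + 1) of the 10 core macrophage markers to the model. That mean stood at 5.99 ± 0.64 for WT and at 7.55 ± 0.48 for KO, so the covariate and the group cannot be fully told apart. With it, the Cd9 difference was 0.53 (SE 0.23, adjusted p = 0.42 by limma) and kept its sign. The differences of Cd63 and Cd151 became -0.65 and -0.47, that of Cd81 -0.13 and that of Tspan32 0.01. Cd37 kept a difference of -0.26. WT replicate 2 was the highest WT library both in the macrophage markers, at 3892 FPKM against 1402 and 1890 FPKM, and in Cd9, at 122 FPKM against 107 and 111.5 FPKM.

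**Figure D5:**
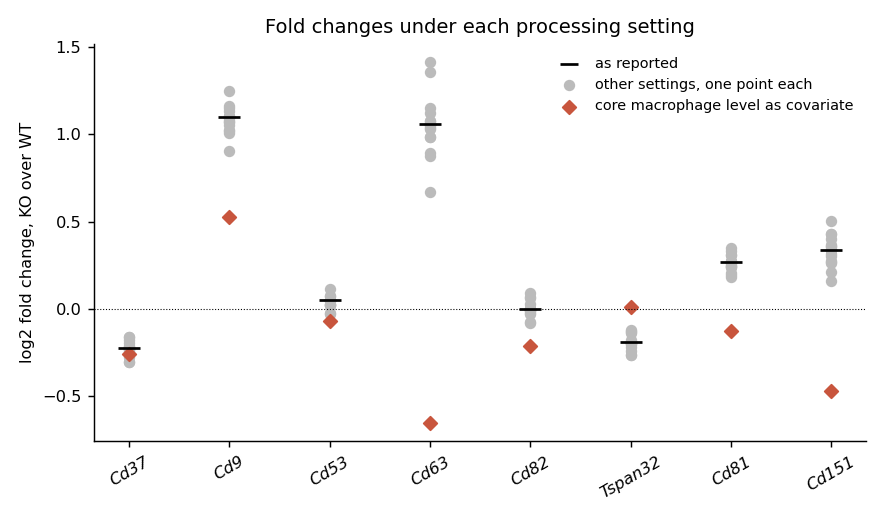
Log2 fold change of the 8 tested members as reported (black bar), under each other processing setting (grey points) and with the core macrophage level as a covariate (red diamonds). Cd9 stays above 0 in all of these settings, from 0.53 to 1.25, and Cd63, Cd81 and Cd151 lie below 0 with the covariate alone.

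Of 22 other tetraspanins listed, 19 were in the tables and 10 were tested, with 0 called. Tspan4, which takes part in forming migrasomes, the vesicles left behind by moving cells, had 3.90, 7.45 and 1.97 FPKM in WT and 14.6, 9.09 and 9.22 FPKM in KO. Its groups did not overlap, with WT replicate 2 again nearest to KO, and the difference was 1.24 (SE 0.36, adjusted p = 0.17 by limma). As Cd9 did, it passed in the settings with many more calls, without WT replicate 2 (difference 1.62, adjusted p = 0.021 by limma) and with array weights, and it was -0.33 with the core macrophage covariate.

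The other tested tetraspanins had differences between -0.21 and 0.23. Tspan13 had 57.0 ± 0.713 FPKM in WT and 52.4 ± 2.56 FPKM in KO, with all KO libraries below WT and a difference of -0.12. The TspanC8 genes Tspan14, Tspan17 and Tspan5 stood at 40.1 and 42.2, at 9.18 and 10.8 and at 1.34 and 1.41 FPKM in WT and KO. Tspan31 had 37.0 and 38.2 FPKM, Tspan3 18.0 and 18.7 FPKM and Tspan2 2.94 and 2.41 FPKM in the same order. Rom1, known from photoreceptor discs, had 5.07 and 4.75 FPKM and Upk1a, known from the urothelium, 1.34 and 1.34 FPKM. The median over these 10 genes was 0.05.

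Of 12 immunoglobulin superfamily and related partners, 11 were tested and 0 called, with a median of -0.13. As reported, differences were positive in 5 and negative in 6, beside 3796 and 6936 of 10732 over all genes. All KO libraries lay above WT in 3 of them and below WT in 4, beside 9.75% and 15.2% of all genes. Ptgfrn, a direct partner of CD9 and CD81, had 1.92, 2.79 and 0.721 FPKM in WT and 6.22, 6.70 and 6.23 FPKM in KO. Every KO library lay well above WT, and the difference was 1.47 (adjusted p = 0.11 by limma). Its relative Igsf8 had 15.5 ± 4.16 and 22.8 ± 4.13 FPKM, with overlap. Of the antiviral membrane proteins, Ifitm2 had 24.0, 45.9 and 20.4 FPKM in WT and 128, 82.6 and 74.7 FPKM in KO, and Ifitm3 had 165 ± 98.2 FPKM in WT and 439 ± 197 FPKM in KO. All KO libraries of both genes lay above WT. On the lower side, Cd4 had 15.5 ± 1.97 and 11.8 ± 1.76 FPKM and the adhesion gene Epcam 4.45 ± 0.445 and 3.42 ± 0.424 FPKM in WT and KO. Both were without overlap and both were chosen after their values were seen. Cd4 is also in a list of T and NK cell markers, with negative differences in 9 of 9 tested genes. In 6 of these 9 all KO libraries lay below WT, beside 15.2% of all genes. The part of those markers in the Cd4 values was not tested.

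Among 10 integrin genes, 9 were tested, 0 called, and the median difference was 0.53. As reported, differences were positive in 5 and negative in 4, beside 3796 and 6936 of 10732 over all genes. Of the negative ones, Itgax lay at -0.034. All KO libraries lay above WT in 4 genes and below WT in 1, beside 9.75% and 15.2% of all genes. Itga6, the laminin receptor chain bound by CD151, had 22.5, 22.9 and 16.1 FPKM in WT and 57.1, 43.3 and 39.1 FPKM in KO, without overlap (difference 1.14, adjusted p = 0.079 by limma). Itgb1, its common partner chain, had 118 ± 19.2 and 169 ± 7.72 FPKM (difference 0.53). Itgam, the complement receptor chain of macrophages, had 103 ± 38.4 and 285 ± 49.6 FPKM (difference 1.51). The 1 gene with all KO libraries below WT was Itgb7, named after its values were seen, a chain of lymphocyte homing receptors with 82.6 ± 5.06 and 70.8 ± 4.65 FPKM (difference -0.22). The other genes with negative differences, Itga4, Itgal and Itgax, overlapped between the groups. Itgam is itself in the list of core macrophage markers, and the part of those markers in the integrin values was not tested.

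The list of ADAM10, ADAM17 and proteins they cleave had 12 genes, of which 11 were tested and 0 called, with a median of 0.41. Adam10, the protease guided by TspanC8 members, had 34.7 ± 6.26 and 37.2 ± 1.22 FPKM in WT and KO, with overlap. Mertk, a receptor for dying cells, had 1.78 ± 0.667 and 6.34 ± 1.27 FPKM (difference 1.41, adjusted p = 0.076 by limma). Notch1 had 11.1 ± 1.15 and 16.6 ± 1.11 FPKM, and the chemokine gene Cxcl16 22.1 ± 7.14 and 48.1 ± 11.5 FPKM. These 3 had the smallest p in the list, and 7 of its 11 tested genes had all KO libraries above WT, beside 9.75% of all genes. Mertk is itself in the list of core macrophage markers, and the part of those markers in these values was not tested.

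MHC class II genes, whose products gather with tetraspanins on antigen-presenting cells, had negative differences in 7 of 7 tested genes, beside 6936 of 10732 over all genes, with 0 called and a median of -0.16. In 5 of the 7 all KO libraries lay below WT, beside 15.2% of all genes. H2-DMb1 and H2-DMa, chains of the peptide-loading factor, had 92.7 ± 7.93 and 77.5 ± 4.22 FPKM and 27.8 ± 2.08 and 24.7 ± 0.807 FPKM in WT and KO. H2-Eb1 had 1289 ± 95.7 and 1136 ± 30.6 FPKM. These 3 had the smallest p in the list and are among those 5.

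Of 18 genes of endosomes and vesicle release, 17 were tested and 0 called, with a median of 0.13. Differences were positive in 12 of the 17, beside 3796 of 10732 over all genes. Sdcbp, which encodes the CD63-binding adaptor syntenin, had 65.2, 69.4 and 62.2 FPKM in WT and 121, 87.0 and 86.8 FPKM in KO. The groups did not overlap (difference 0.56, adjusted p = 0.13 by limma). The lysosomal membrane genes Lamp1 and Lamp2 had 136 ± 28.5 and 213 ± 55.9 FPKM and 18.7 ± 2.12 and 30.4 ± 6.69 FPKM, also without overlap. They are 3 of the 5 genes in the list with all KO libraries above WT, beside 9.75% of all genes.

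The genes whose levels most resembled each member were named by Pearson's r of log2(FPKM + 1) over the 6 libraries, which share the group difference and the macrophage difference. For Cd9 they were Atp6v1a, Gm31223 and Arsg (r from 0.995 to 0.998) and for Cd63 Atp6v1e1, Saa1 and Spsb2 (0.995 to 0.997). Cd81 was most like Rab7, Med11 and Msrb1 (0.996 to 0.997) and Cd151 like Rpn1, Bag1 and S1pr2 (0.995 to 0.997). Cd37 was followed by Vcpkmt, Tha1 and Rgl2 (r near 0.994) and Tspan32 by Ccdc125, Il27ra and Wdr90 (0.994 to 0.998). The nearest to Cd82 were Tmem70, Rcn1 and 2310022A10Rik (0.982 to 0.989), and to Tspan33 Npepps, Homer1 and Pdcd6ip (0.969 to 0.975). For Cd53 they were Dusp23, Lrrc41 and Nr2f6 (0.987 to 0.994), and with totals rescaled these 3 fell to between 0.240 and 0.516. With 6 libraries and 10732 genes, values of this size describe these libraries.

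Between the members themselves, Cd63, Cd81 and Cd151 had r of 0.955 to 0.975 with each other over the 6 libraries. Cd53 had 0.842 with Cd63, 0.922 with Cd81 and 0.95 with Cd151. These pairs were computed on unscaled values only, so the part of library scale in them was not tested. Cd9 had 0.883 with Cd63, 0.895 with Cd81 and -0.773 with Cd37. Cd37 and Tspan32 had 0.851. With Cd53, Cd63, Cd81 and Cd151, Cd37 had weaker negative r of -0.326, -0.467, -0.511 and -0.376, and Tspan32 had -0.705, -0.687, -0.765 and -0.717. Cd82 ran from -0.111 with Tspan32 to 0.405 with Cd53, and had 0.011 with Cd9. Tspan33 had 0.17 to 0.32 with Cd53, Cd63, Cd81 and Cd151, 0.513 with Cd9 and -0.78 with Cd37.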

How the data were processed

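Total RNA was extracted with TRIzol and sequenced from libraries of a VAHTS V6 kit, per the labels' protocols. The deposited values are FPKM computed by the authors, 1 value for each of 21399 gene symbols per library, on the mm10 build per the submitters' processing notes. Which aligner, counter, strand setting and annotation were used is not given in the sources used here. Groups were taken from the sample titles. A gene was tested if its mean reached 1 FPKM, on unscaled log2(FPKM + 1), by limma 3.58.1 with a mean-variance trend (R 4.3.3), and Benjamini-Hochberg adjustment over all 10732 genes at 0.05. Whole reads were recovered from the steps of the FPKM values, within 0.002 reads for 10729 of these genes, and served for depth, counting error and a voom fit. Where the 6 counts of a gene share a factor, that factor is lost. Intervals from reads cover counting error only. The scripts were tested on simulated data. Named genes were the 9 members, the other tetraspanins with a mean of at least 1 FPKM, the 3 genes with the smallest p in each partner list, the 3 genes most like each member, and Ppara. Cr2, Igsf8, Adam10, Cd4, Epcam, Itgb7 and the named microglia markers were added after their values were seen. The members and lists were chosen with earlier results of these data known. Alternatives covered pseudocounts, filters, scalings, fits, a covariate and single libraries. Positions came from GENCODE M21 and promoter sequences from RefSeq (GRCm38.p6). Python 3.11.15, pandas 2.3.3, numpy 2.4.6 and matplotlib 3.10.9 were used. Protein sequences and splice forms were not analysed here.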

Additional observations from a re-analysis of the deposited data

How the results depend on the processing

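No member was called under 18 of the 20 alternatives that kept the adjusted threshold. One, Cd9, was called with array weights and without WT replicate 2, and 3 members passed at an unadjusted p of 0.05. The count of genes called higher was 6 with a pseudocount of 5, 0 with no filter, 6 with totals rescaled without mitochondrial and ribosomal protein genes, 544 with array weights, 11 with the replicate block, 0 with the core macrophage covariate, 5 with voom on recovered reads and 951 at an unadjusted p of 0.05. The count called lower was 68 with array weights and 881 at an unadjusted p. Leaving out single libraries gave 0 to 500 genes higher, 0 to 38 lower and 0 to 1 members, with each upper end reached without WT replicate 2. Of 41 named genes followed through the settings, 12 passed with array weights and 12 without WT replicate 2, Tmem119 among them in both. Over all 10732 genes, 544 passed higher and 68 lower with array weights, and 500 higher and 38 lower without WT replicate 2. Many named genes were chosen by their p or values in these same data, so their passing is no separate result. Deviations of same-numbered libraries from their group means had r = -0.208, -0.376 and 0.273 for replicates 1 to 3. With 3 libraries per group these values cannot decide whether the numbers pair the samples, and the labels state no pairing. With the replicate block Mertk passed and no member did.

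Signs changed for small differences. With totals rescaled, Cd82 was -0.025 and Upk1a -0.00099. Rescaling without mitochondrial and ribosomal protein genes, which moved the median of all genes from -0.06 to -0.13, gave -0.024 for Cd53, -0.073 for Cd82, -0.0030 for Tspan3, -0.024 for Tspan31 and -0.028 for Upk1a. Quantile normalization gave -0.026 for Cd53, -0.00021 for Cd82 and -0.014 for Upk1a, and voom -0.0028 for Cd82. Leaving out single libraries gave ranges of -0.078 to 0.090 for Cd82, -0.062 to 0.151 for Upk1a, -0.090 to 0.170 for Tspan3, -0.052 to 0.125 for Tspan31 and -0.130 to 0.035 for Rom1. The core macrophage covariate gave -0.066 for Cd53, -0.65 for Cd63, -0.13 for Cd81, -0.21 for Cd82, -0.47 for Cd151, 0.011 for Tspan32, 0.20 for Tspan2, -0.35 for Tspan3, -0.33 for Tspan4, -0.060 for Tspan5, -0.10 for Tspan14, -0.18 for Tspan17, -0.35 for Tspan31, -0.26 for Upk1a, -0.67 for Ifitm3, -0.26 for Lamp1, 0.37 for Cr2 and -0.30 for Igsf8. The cause was not tested. Depth limits Tspan33 and Ppara, which had at most 30 and 23 reads in a library.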
